A study of Homo sapiens with 18 samples.

Results

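Metallothioneins are the subject here, together with MTF1, the transcription factor that senses zinc and switches them on, and SLC30A1, a zinc exporter of the plasma membrane. The members were taken by name: MT1A, MT1E, MT1F, MT1G, MT1H, MT1X, MT2A, MTF1 and SLC30A1, 9 genes in all, with every probe shown. The beadchips, Illumina HumanHT arrays that read 1 fluorescence intensity per probe, carried 11 probes for 8 of the 9 genes among 47217 probes. No probe was named for MT1A in the annotation used here, and it was not analysed. A probe counted as detected on an array when its detection p-value was under 0.01, and 10 of the 11 member probes were detected on at least 3 of the 18 arrays and tested, beside 19455 probes in all.

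As the study names them, the arrays measured 2 established human cell lines, Jurkat, a T-cell leukaemia line, and THP1, a monocytic leukaemia line. Each line was left untreated (Ctrl) or exposed for 24 h to 50 µg/ml of graphene oxide (GO), a sheet of oxidised carbon, or of GONH2, graphene oxide carrying amino groups, and each of the 6 groups held 3 arrays. GONH2 was made by opening the epoxide groups of GO with a triethyleneglycol diamine, which adds an amino-ended side chain. The study's own characterisation describes further differences between the materials, in sheet thickness, oxygen content and dispersion, so a contrast between them is not one of the side chain alone. Each line is a single tumour-derived line, and the methods speak of biological and technical triplicates without saying which arrays are which, so p-values measure the spread between these arrays, which may be partly technical. In such bulk samples, fewer cells of a kind and less RNA per cell cannot be told apart.

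Before the results, 2 facts about the labels matter. For the THP1 arrays, a table published with the study for GO in monocytes lists treated values that equal the means of the arrays labelled GONH2 and not those of the arrays labelled GO. The deposited labels are kept below, the THP1 groups are called "labelled GO" and "labelled GONH2", and comparisons between the lines are given with the THP1 labels exchanged as well. The arrays labelled Jurkat carried many myeloid transcripts: a list of 21 myeloid markers had 16 detected throughout the 3 Jurkat controls, against 18 in THP1. A list of 19 T-cell markers had 7 detected throughout the Jurkat controls: CD3D, CD247, CD4, LAT, LEF1, BCL11B and SH2D1A. Another 8 were detected in none of them: CD3E, CD3G, CD5, CD28, CD8A, GATA3, RAG1 and ZAP70. The THP1 controls had 1 of the 19 detected throughout, LAT, and 15 in none. The name Jurkat follows the study throughout this text, and the identity of the line on those arrays was not tested. The summed intensity of the myeloid markers was 38280 to 40330 on Jurkat controls, 57690 to 63750 with GO and 33290 to 33920 with GONH2, and 63070 to 72640 on THP1 controls, 42360 to 45790 on arrays labelled GO and 81570 to 82770 on those labelled GONH2. The T-cell marker sum was 1192 to 1426 over all Jurkat arrays and 580.6 to 665.7 over all THP1 arrays. The myeloid sum was therefore higher than in controls on both sets of arrays where MT1 probes fell (below), and its part in those results was not tested. The sum adds unlogged intensities, so it mostly follows its brightest markers and does not measure a share of myeloid cells. On Jurkat controls these were ELANE, PRTN3, AZU1 and CEBPA, with mean log2 readings of 12.3 to 13.6. Between 15761 and 17809 probes were detected per array, and arrays of a group correlated at 0.987 or above.

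Metallothioneins are small cysteine-rich proteins that bind zinc and copper and take up metal ions in excess, cadmium included. Their genes lie side by side on chromosome 16, where RefSeq lists 16 genes and pseudogenes from MT4 to MT1X. Zinc activates MTF1, which binds metal response elements in their promoters and in that of SLC30A1, so that rising metal is met by more metallothionein and more zinc export. Glucocorticoids and oxidants are also known to induce several of them.

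Promoter windows of MT2A, MT1H and MT1X are shown with letter matches to the element through which MTF1 acts. RefSeq windows (GRCh38.p14, 250 bases before to 50 after the annotated start) were matched for 5 of the 9 members. No window was matched for MT1A, MT1E, MT1F or MT1G. Each is printed 5′ to 3′ in the gene's direction, with capitals marking matches to the core of the metal response element, TGCACNC or TGCGCNC, on either strand.
MT2A, chr16:56608334-56608633, plus strand: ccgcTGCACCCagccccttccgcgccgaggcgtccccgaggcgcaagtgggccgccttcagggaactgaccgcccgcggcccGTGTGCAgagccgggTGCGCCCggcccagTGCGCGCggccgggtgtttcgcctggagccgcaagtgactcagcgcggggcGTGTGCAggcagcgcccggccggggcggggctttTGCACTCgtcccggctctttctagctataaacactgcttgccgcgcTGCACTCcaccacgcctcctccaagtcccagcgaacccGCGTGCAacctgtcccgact
MT1H, chr16:56669564-56669863, plus strand: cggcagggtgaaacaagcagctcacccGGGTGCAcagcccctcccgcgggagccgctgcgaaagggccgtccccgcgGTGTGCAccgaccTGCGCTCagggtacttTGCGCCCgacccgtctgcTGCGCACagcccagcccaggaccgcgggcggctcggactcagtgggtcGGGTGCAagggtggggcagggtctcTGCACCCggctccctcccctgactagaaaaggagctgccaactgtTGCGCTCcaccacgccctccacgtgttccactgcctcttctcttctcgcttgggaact
MT1X, chr16:56682220-56682519, plus strand: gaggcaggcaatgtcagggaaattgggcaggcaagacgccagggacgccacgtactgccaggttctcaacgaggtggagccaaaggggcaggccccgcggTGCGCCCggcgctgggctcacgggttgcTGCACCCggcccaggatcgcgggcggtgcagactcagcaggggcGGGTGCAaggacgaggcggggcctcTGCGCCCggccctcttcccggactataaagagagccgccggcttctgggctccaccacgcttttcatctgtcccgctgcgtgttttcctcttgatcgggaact
The MT2A and MT1H windows each held 8 matches and the MT1X window 4. Of 35116 promoter windows of this length, 0.601% held at least 4 matches and 0.0199% at least 8. The SLC30A1 window held 2 matches, and 8.6% of all windows held at least that many. The MTF1 window held 0, and 29.6% of all windows held at least 1. In MT1H and MT1X alike, a match on the opposite strand lay from -78 to -72 and one on the gene's own strand from -53 to -47, counted from the annotated start, and MT2A had one from -54 to -48. A match is a match of letters only and says nothing of binding in these cells.

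**Figure D1:**
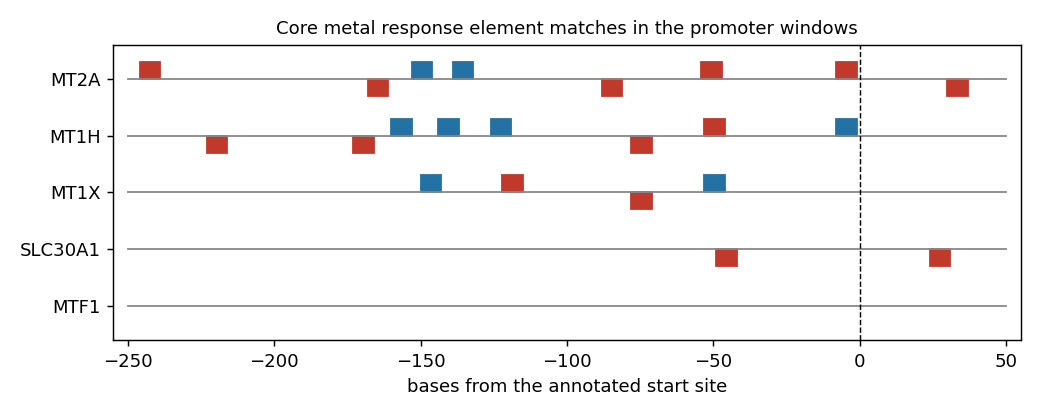
Matches to the core metal response element in 5 promoter windows, by distance in bases from the annotated start site (dashed line). Red boxes are TGCACNC and blue boxes TGCGCNC, drawn above the line for the gene's own strand and below it for the opposite strand. MT2A and MT1H show 8 boxes each, MT1X 4, SLC30A1 2 and MTF1 none.

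In untreated cells, MT1E, MT1F and MT1X were bright probes in both lines, and MT2A was bright as well. All levels here are normalised log2 intensities, and levels of different probes are not compared. The MT1E probe ILMN_2173611 read 11.69, 11.78 and 11.54 on the Jurkat controls and 12.28, 12.11 and 12.14 on the THP1 controls. MT1F read 11.28, 11.32 and 11.20 in Jurkat and 11.64, 11.74 and 11.71 in THP1. MT1X read 10.11, 10.02 and 10.00 in Jurkat and 10.76, 10.61 and 10.67 in THP1. All 3 read lower in Jurkat on these arrays, though only MT1X was called (below). MT2A, often the most abundant isoform in human tissues, went the other way, with 9.94, 9.65 and 9.78 in Jurkat against 9.59, 9.23 and 9.32 in THP1.

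The test between untreated lines called 3 of the 10 member probes, all lower in Jurkat than in THP1, where 11.1% of all tested probes were called, 5.28% lower and 5.86% higher in Jurkat. A probe was called at p under 0.001 with a Benjamini-Hochberg adjusted p under 0.05 over all tested probes. MT1X was lower by 0.63 log2 units (SE 0.09, adjusted p = 0.00288), MTF1 by 0.77 (SE 0.09, adjusted p = 0.00122) and the SLC30A1 probe ILMN_1745021 by 0.96 (SE 0.16, adjusted p = 0.00419). The other SLC30A1 probe, ILMN_2067852, differed by the same 0.96 (SE 0.20) with an adjusted p of 0.0107 and missed the p threshold, 1 of 3 Jurkat controls detecting it. Without background correction these differences were -0.40 and -0.33. MT1E (Jurkat minus THP1, -0.51, adjusted p = 0.0118), MT1F (-0.43, adjusted p = 0.0132) and MT2A (0.41, adjusted p = 0.0524) were not called. The MT1X call was lost without Jurkat control 2 (-0.62) or 3 (-0.61), and the SLC30A1 call without Jurkat control 1 (-0.94) or any of the THP1 controls (-0.97 to -0.95).

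In Jurkat cells exposed to GO, 4 metallothionein probes fell, those of MT1E, MT1F and MT1X by 2.76-fold to 4.19-fold and that of MT1H to a level detected on 1 of 3 arrays, while MT2A did not pass the test. MTF1 rose. In all, 5 of 10 member probes were called, 4 lower and 1 higher, where 25.1% of all tested probes were called, 12.3% lower and 12.8% higher. The median difference was -0.43 over the members and 0.06 over all tested probes. The same GO arrays carried the higher myeloid marker sum, at 57690 or more against 40330 or less on controls.

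MT1E fell from the control readings above to 9.67, 9.29 and 9.84 on the GO arrays. The difference was -2.07 log2 units (SE 0.16, adjusted p = 4.78e-05), or 4.19-fold. MT1F read 9.65, 9.72 and 9.98 with GO, lower by 1.49 (SE 0.12, adjusted p = 5.47e-05). In each case all 3 treated arrays lay more than 1 log2 unit below every control. MT1X read 8.39, 8.44 and 8.91 with GO, lower by 1.46 (SE 0.15, adjusted p = 0.000198). MT1H read 7.68, 7.49 and 7.61 on the controls through its probe ILMN_2124802. With GO the readings were 5.01, 5.11 and 5.33, and only 1 of those 3 arrays detected it, so the fall of 2.44 (SE 0.12, adjusted p = 1.05e-05) ended at the background. Without background correction the MT1H fall was 1.11, still called. MT1G, which is dim in these cells, read 5.11, 5.14 and 5.32 on controls and 4.63, 4.57 and 4.93 with GO, with no array of either group detecting it.

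MT2A did not follow them. With GO in Jurkat it read 9.75, 9.94 and 9.91, inside the spread of its controls. The difference was 0.07 log2 units with a 95% confidence interval from -0.19 to 0.34, whereas the intervals of the 4 called MT1 probes all ended at -1.11 or lower. Whether the change of MT2A differed from theirs was not tested in itself.

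**Figure D2:**
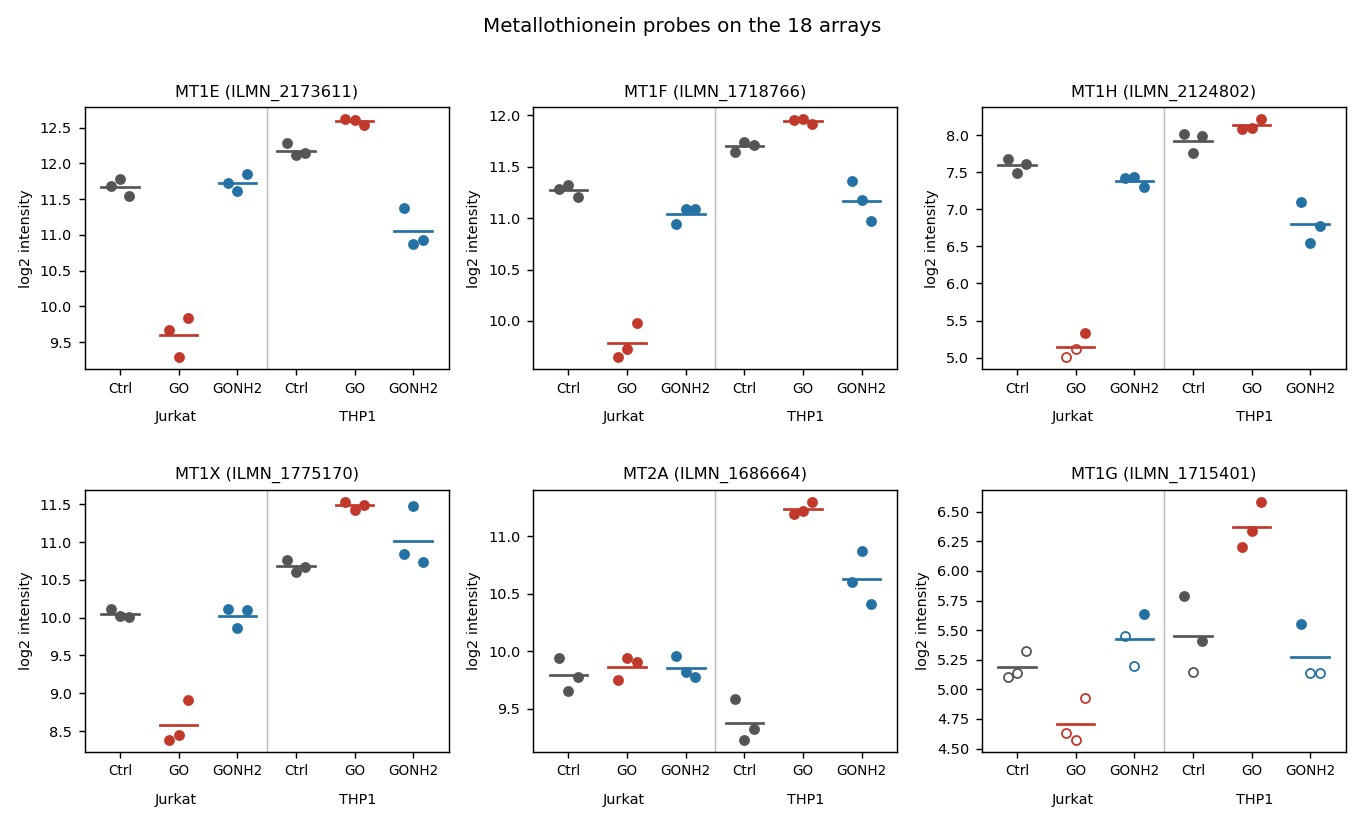
Normalised log2 intensity of 6 metallothionein probes on each of the 18 arrays, by line and treatment as labelled, with a bar at each group's mean. Open points are arrays on which the probe was not detected. In Jurkat, GO arrays sit far below controls for MT1E, MT1F, MT1H and MT1X but not for MT2A, and in THP1 MT2A lies above its controls (9.23 to 9.59) on both treated groups.

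MTF1 read 7.63, 7.53 and 7.53 on the Jurkat controls and 8.25, 8.02 and 8.13 with GO, higher by 0.57 (SE 0.10, adjusted p = 0.00282). This rise was the least firm of the calls: it was lost when any array but the second GO array was left out (0.51 to 0.60), and with median scaling of the arrays, at 0.32 (adjusted p = 0.302). The SLC30A1 probe ILMN_1745021 read 5.65, 5.39 and 6.01 on controls and 5.55, 5.65 and 5.66 with GO, a difference of -0.06 (95% confidence interval -0.43 to 0.30). No call was made for either SLC30A1 probe in any comparison of treated cells.

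GONH2 at the same dose left the same probes near their control readings in Jurkat. The count was 0 of 10 member probes by limma, with 1 at an unadjusted p under 0.05, where 0.812% of all tested probes were called, 0.524% higher and 0.288% lower. MT1E read 11.72, 11.62 and 11.85, for a difference of 0.06 (95% confidence interval -0.19 to 0.31). MT1X read 10.11, 9.87 and 10.10, for a difference of -0.02 (-0.25 to 0.22). MT2A read 9.96, 9.82 and 9.78, for a difference of 0.06 (-0.19 to 0.31). These intervals leave out changes as large as those on the GO arrays for MT1E and MT1X. MT1F, at 10.94, 11.08 and 11.09, lay below all 3 controls by a mean of 0.23 (adjusted p = 0.231), and MT1H, at 7.42, 7.44 and 7.30, by 0.21 (adjusted p = 0.295).

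Set directly against each other in Jurkat, GONH2 and GO differed on 5 of 10 member probes, 4 higher with GONH2 and 1 lower, where 24.1% of all tested probes were called, 11.8% higher and 12.4% lower. GONH2 arrays were higher for MT1E by 2.13 (SE 0.16, adjusted p = 3.13e-05), MT1X by 1.44 (SE 0.16, adjusted p = 0.000224) and MT1F by 1.26 (SE 0.12, adjusted p = 0.000118). MT1H was higher by 2.24 (SE 0.12, adjusted p = 9.49e-06) against GO arrays of which 1 in 3 detected it, and by 0.98 without background correction. MTF1, at 7.25, 7.31 and 7.64 with GONH2, was lower than with GO by 0.73 (SE 0.14, adjusted p = 0.00312). The MTF1 call was again lost without any array but the third GONH2 array (-0.78 to -0.65) and with median scaling (-0.51, adjusted p = 0.11). MT2A differed by -0.01 (95% confidence interval -0.27 to 0.25). This comparison shares its GO arrays with the comparison of GO and control.

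In THP1 cells MT2A rose on both sets of treated arrays, while the MT1 probes rose, fell or did not pass. On the arrays labelled GO, 3 of 10 member probes were called and all 3 rose, where 7.93% of all tested probes were called, 4.04% higher and 3.89% lower. MT2A went from 9.59, 9.23 and 9.32 on controls to 11.19, 11.22 and 11.30. The rise was 1.86 log2 units (SE 0.12, adjusted p = 0.000449), or 3.63-fold. MT1X read 11.53, 11.43 and 11.49, higher by 0.80 (SE 0.10, adjusted p = 0.00263). MT1G was near the detection limit on controls, at 5.79, 5.15 and 5.41 with 2 of 3 arrays detecting it, and read 6.20, 6.33 and 6.58 with all 3 detecting it, a rise of 0.93 (SE 0.18, adjusted p = 0.0121). The MT1G call was lost without any single array but the first control (0.78 to 1.01), and its size was 0.35 without background correction. With median scaling the MT1X rise was 0.46 and not called (adjusted p = 0.156), while MT2A kept its call at 1.51.

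The other MT1 probes were not called on the arrays labelled GO. MT1E read 12.62, 12.61 and 12.54, above every control by a mean of 0.41, but it missed the p threshold (adjusted p = 0.0258). It was called in 4 of 15 alternatives, among them no background correction (0.41, adjusted p = 0.000757). With median scaling the MT1E difference was 0.08 (adjusted p = 0.86). MT1F (0.24, 95% confidence interval 0.02 to 0.46) and MT1H (0.21, -0.05 to 0.47) were not called either, and their signs turned with median scaling (-0.11 and -0.12). MTF1, at 8.42, 8.20 and 8.33 against 8.25, 8.36 and 8.39 on controls, differed by -0.02 (95% confidence interval -0.26 to 0.23).

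On the THP1 arrays labelled GONH2, MT2A rose while MT1E and MT1H fell. Again 3 of 10 member probes were called, 1 higher and 2 lower, where 19.9% of all tested probes were called, 9.89% higher and 9.98% lower. MT2A read 10.60, 10.87 and 10.41, higher than controls by 1.25 (SE 0.16, adjusted p = 0.000577). MT1E read 11.38, 10.87 and 10.93, lower by 1.12 (SE 0.16, adjusted p = 0.000848). MT1H went from 8.01, 7.76 and 8.00 to 7.10, 6.55 and 6.78, lower by 1.12 (SE 0.17, adjusted p = 0.000951). All 3 calls held with every array left out in turn. Without background correction the MT1H fall was 0.69. The myeloid marker sum was at least 81570 on these arrays and at most 72640 on controls.

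MT1F and MTF1 lay just outside the call on the same arrays. MT1F read 11.36, 11.18 and 10.97, below every control by a mean of 0.53 (adjusted p = 0.0137), and MTF1 read 8.77, 8.91 and 8.73, above every control by a mean of 0.47 (adjusted p = 0.0148). Both were called in one fit of all 18 arrays, but with median scaling MTF1 differed by only 0.14 (adjusted p = 0.695). MT1X read 10.84, 11.48 and 10.73, with the second array above the other two, for a difference of 0.34 (95% confidence interval -0.10 to 0.78). MT1G read 5.55, 5.14 and 5.14, detected on 1 of 3 arrays. SLC30A1 read 6.51, 6.64 and 6.75 through ILMN_1745021 against 6.62, 6.67 and 6.64 on controls, a difference of -0.01 (-0.30 to 0.27).

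**Figure D3:**
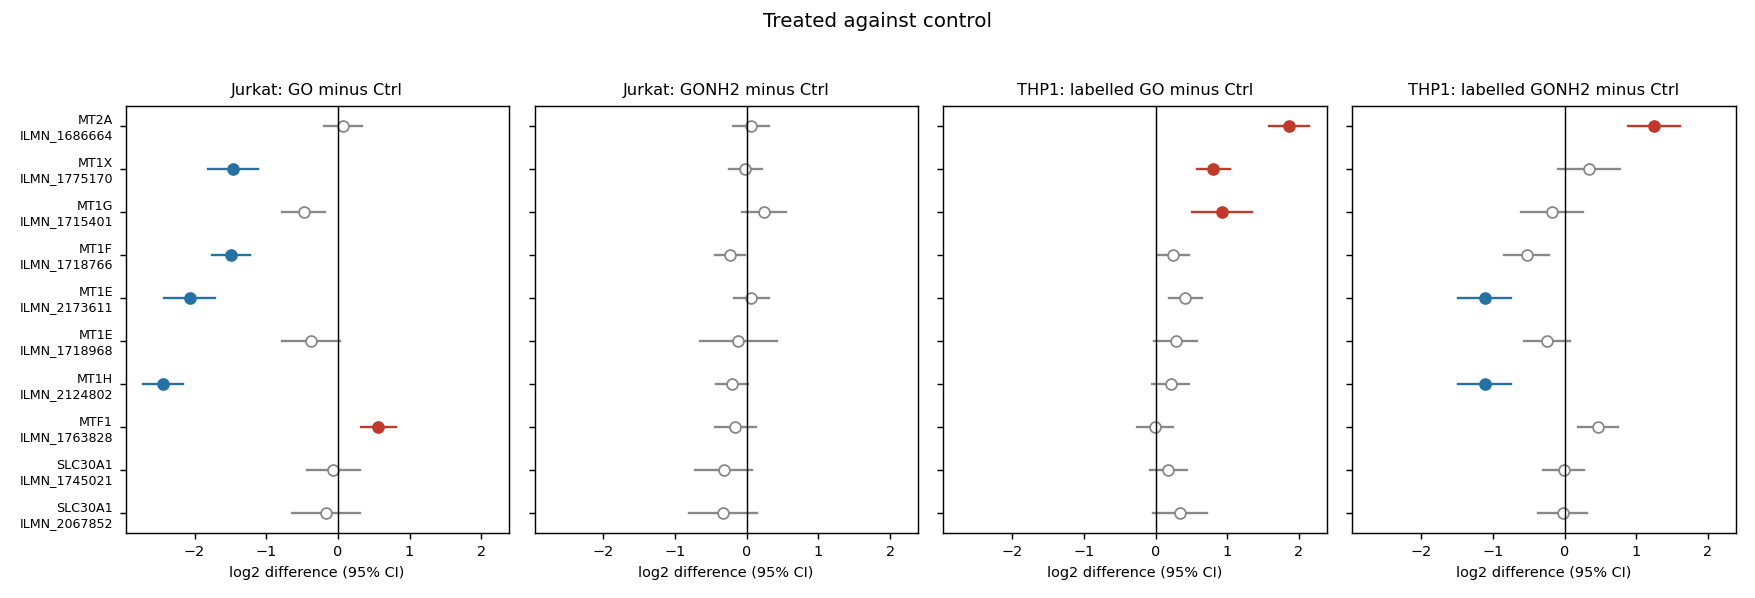
Log2 differences of treated minus control arrays for the 10 tested member probes, with 95% confidence intervals. Filled points were called (red higher, blue lower) and open points were not. The panel of Jurkat with GONH2 has no filled point, MT2A is filled in both THP1 panels (1.86 and 1.25) and MT1E and MT1H are filled and negative for Jurkat with GO and for THP1 labelled GONH2.

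Between the 2 THP1 treatments, 4 of 10 member probes were called, all lower on the arrays labelled GONH2, where 28.0% of all tested probes were called, 14.7% higher and 13.2% lower. MT1E was lower by 1.53 (SE 0.15, adjusted p = 0.000142), MT1H by 1.32 (SE 0.15, adjusted p = 0.000251), MT1G by 1.10 (SE 0.16, adjusted p = 0.000685) and MT1F by 0.77 (SE 0.13, adjusted p = 0.00135). MT1G was detected on 1 of 3 arrays labelled GONH2, and without background correction the differences were -0.40 for MT1G and -0.84 for MT1H, both still called. The MT1F call was lost without any of the arrays labelled GO, or without array 2 or 3 of those labelled GONH2 (-0.79 to -0.67). MT2A was lower by a mean of 0.61 (adjusted p = 0.00639) and missed the p threshold. It was called in 7 of 15 alternatives, among them no background correction (-0.58) and leaving out the second array labelled GONH2 (-0.73). MT1X, at -0.47 (95% confidence interval -0.90 to -0.03), was called only without that array, at -0.70. Both of these comparisons with controls use the same 3 THP1 control arrays.

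Responses were then compared between the lines. As labelled, the response to GO (treated minus control, THP1 minus Jurkat) differed on 6 of 10 member probes, all in the positive direction, where 24.5% of all tested probes were called, 12.3% positive and 12.2% negative. The 6 differences were 2.65 for MT1H, 2.48 for MT1E, 2.27 for MT1X, 1.79 for MT2A, 1.73 for MT1F and 1.40 for MT1G, with adjusted p-values of 0.000427 or less. The sizes for MT1H and MT1G rest on Jurkat readings at the background, MT1H being detected on 1 of 3 GO arrays and MT1G on none of the control or GO arrays. Without background correction they were 1.26 and 0.50, both still called. The response to GONH2 differed on 3 of 10, where 18.6% of all tested probes were called, 9.52% positive and 9.06% negative. They were MT2A by 1.19 (adjusted p = 0.000766), MT1E by -1.18 (adjusted p = 0.000746) and MT1H by -0.91 (adjusted p = 0.0031), the last by -0.56 without background correction. MT1H lost that call without any 1 of 7 of the 12 arrays (-0.92 to -0.86): THP1 control 1 or 3, THP1 array 3 labelled GONH2, Jurkat control 2 or 3 and Jurkat GONH2 array 1 or 2. MT2A lost it with median scaling (0.87, adjusted p = 0.0157).

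With the THP1 labels exchanged, 111 tested probes were called for GO in place of 4761, and 1072 for GONH2 in place of 3615. MT2A was called under either reading of the labels: its response was higher in THP1 by 1.79 or, exchanged, 1.18 (adjusted p = 0.0205) for GO, and by 1.19 or 1.80 (adjusted p = 0.000106) for GONH2. MT1X was likewise called for GO under both (2.27 and 1.80, adjusted p = 0.0102), and for GONH2 only with the labels exchanged (0.82, adjusted p = 0.00292). For GO, MT1H (1.33) and MT1F (0.96) kept their calls, and MT1E, at 0.95 (adjusted p = 0.0856), and MT1G, at 0.31 (adjusted p = 0.576), did not. For GONH2 the signs of MT1E and MT1H turned, to 0.35 and 0.42, with neither called.

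**Figure D4:**
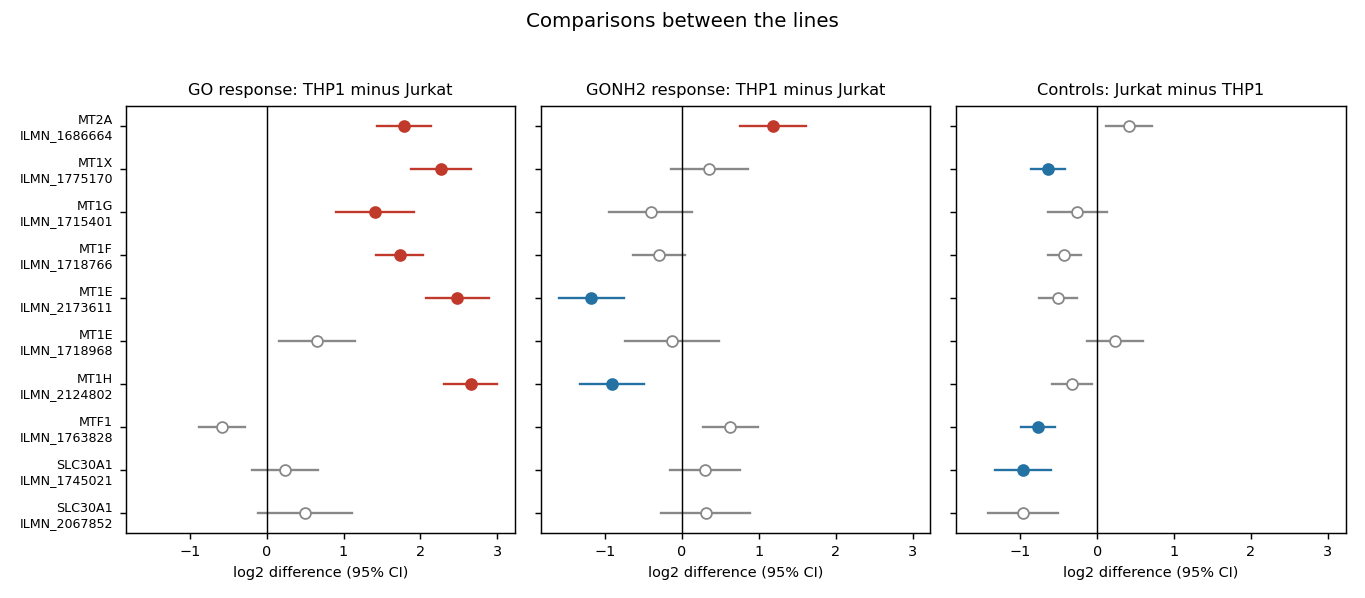
Log2 differences between the lines for the 10 tested member probes with 95% confidence intervals, as labelled: the response to GO and to GONH2 (THP1 minus Jurkat) and the untreated controls (Jurkat minus THP1). Filled points were called (red positive, blue negative). For GO all 6 filled points are positive, from 1.40 to 2.65, and for GONH2 MT2A is positive and MT1E and MT1H negative.

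The members moved together in different ways within each line, as a description over 9 arrays that share their controls. Each set of arrays pools control and treated groups, so these correlations partly restate the group differences given above. In Jurkat the MT1E, MT1F, MT1H and MT1X probes correlated at 0.98 to 0.99 with one another and MT2A at -0.23 to -0.12 with them. In THP1 MT1X went with MT2A (r = 0.89) rather than with MT1E (0.25) or MT1H (0.13), while MT1E, MT1F and MT1H stayed together at 0.94 to 0.98. MTF1 ran against MT1E in each line, at -0.88 in Jurkat and -0.92 in THP1, and against MT1F and MT1H (-0.94 to -0.85). It did not run against MT2A, at 0.01 in Jurkat and 0.16 in THP1. With MT1X it correlated at -0.88 in Jurkat but at -0.0008 in THP1. MT1 transcripts are close copies of one another, and a probe of one may also read others, so the 4 MT1 probes that fell in Jurkat cannot be taken as measurements of 4 separate genes.

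Probes of one gene did not always tell the same story. The dim MT1E probe ILMN_1718968 was detected on 3 of 18 arrays and was not called in any comparison. It correlated with ILMN_2173611 at 0.46 over all arrays, 0.43 within Jurkat and 0.89 within THP1. With adjusted p alone it passed between the THP1 treatments (-0.53, adjusted p = 0.00797) and between lines for GO (0.65, adjusted p = 0.035). Both differences had the direction of ILMN_2173611. The second MT1H probe, ILMN_1683923, was detected on no array and was not tested. The SLC30A1 probes correlated at 0.89 over 18 arrays but at -0.22 within Jurkat, where ILMN_2067852 was detected on 2 of 9 arrays, and both were higher in THP1 than in Jurkat in every group.

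**Figure D5:**
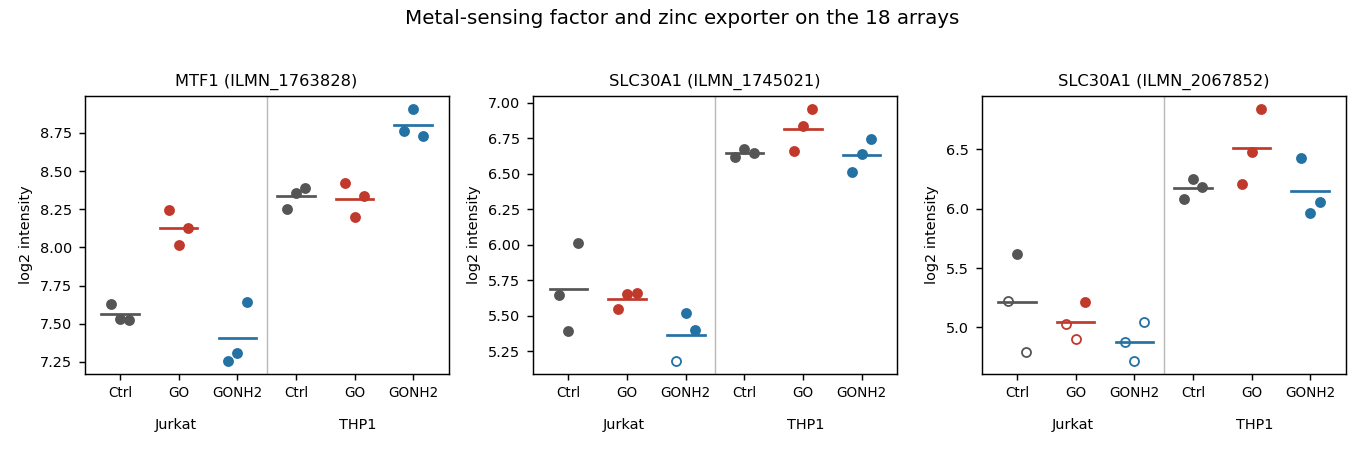
Normalised log2 intensity of MTF1 and of both SLC30A1 probes on each of the 18 arrays, by line and treatment as labelled, with a bar at each group's mean and open points where the probe was not detected. MTF1 is higher with GO than in the controls of Jurkat (8.02 to 8.25 against 7.53 to 7.63), and SLC30A1 separates the lines but not the treatments.

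Other zinc and copper genes were taken as lists. Of 12 further metallothionein genes and pseudogenes, 6 had a named probe, and none of these was detected on more than 1 array. Of 9 further zinc exporters of the SLC30 family 5 were tested, and of 14 zinc importers of the SLC39 family 10. In Jurkat neither list had a call by limma with GONH2, where 0.812% of all tested probes were called, or with GO, where 25.1% were. At an unadjusted p under 0.05, 1 exporter and 1 importer passed with GONH2 and 2 exporters and 5 importers with GO. For GO the counts depended on the processing, with 4 importers and 1 exporter called without background correction and 5 and 2 with adjusted p alone. Over all 19455 tested probes, 6724 were called without background correction and 9281 with adjusted p alone, in place of 4890. In THP1 the arrays labelled GO showed a fall of SLC39A4, an intestinal zinc importer, by 0.92 (adjusted p = 0.0076), lost without control 1 or 3 or array 1 or 2 labelled GO. Those labelled GONH2 showed a rise of SLC30A3, a vesicular zinc transporter, by 0.88 (adjusted p = 0.000978), lost with median scaling, and a fall of SLC39A9 by 0.86 (adjusted p = 0.0038), lost without control 1 or 2 or array 1 or 2 labelled GONH2. Of all tested probes 7.93% and 19.9% were called in these comparisons.

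Of 15 genes of copper handling, all tested, 5 fell and 1 rose with GO in Jurkat, and the rest did not pass, where 25.1% of all tested probes were called, 12.3% lower and 12.8% higher. COX17, which brings copper to cytochrome oxidase, fell by 3.00 (SE 0.17, adjusted p = 1.78e-05), ATOX1, a cytosolic copper chaperone, by 1.57 (SE 0.15, adjusted p = 0.000129) and COMMD1 by 1.37 (SE 0.10). The list median was -0.40 against 0.06 over all tested probes. With GONH2 in Jurkat 0 of the 15 were called by limma, where 0.812% of all tested probes were called, and 2 had an unadjusted p under 0.05. On THP1 arrays labelled GONH2 2 of the 15 fell, COX17 (-2.15, SE 0.26) and COMMD1 (-1.16, SE 0.16), and 2 rose, COX19 (1.03) the most. Of all tested probes 19.9% were called, 9.98% lower and 9.89% higher. With median scaling and in one fit of 18 arrays 7 of the list were called, and 9 with adjusted p alone. Over all tested probes these counts were 3854, 5908 and 8180 in place of 3866. On the arrays labelled GO 1 of the 15 rose, where 7.93% of all tested probes were called. That count was 3 without background correction and 0 with the replicate number as a block. Over all tested probes 2954 and 1032 were then called in place of 1543.

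The genes whose readings ran most like MT2A over the 18 arrays were WT1 (r = 0.94), WDR54 (0.93), CNST (0.88), CELF1 (0.88) and SSR2 (0.88). Those most like MT1X were HCST (0.95), H2BC9 (0.94), DPM3 (0.94), NBDY (0.93) and ATP5MC2 (0.93). These correlations pool 6 groups of arrays and are given as a description.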

How the data were processed

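The authors scanned Illumina HumanHT arrays and extracted probe values with GenomeStudio, and deposited for each array an intensity per probe, not normalized, with a detection p-value, beside a normalized intensity table used here only as an alternative. From the deposited intensity and detection p-value columns, limma (version 3.58.1, R version 4.3.3) corrected the background (neqc, offset 16), normalized quantiles over 18 arrays and took log2. Probes with a detection p-value under 0.01 on at least 3 arrays were tested with limma's moderated test, 6 arrays for 2 groups and 12 for a difference between lines, and called at p under 0.001 and adjusted p under 0.05. Probes were named from the platform annotation: 30106 of 47217 had 1 symbol, 8 several and 17103 none. Every member probe was named in the text, and of each further list at most the 3 called genes with the largest change. The members and lists were chosen with earlier results of these data known. The number of arrays limits the precision, and chip or scan batches were not given in the sources used here. Alternatives were the deposited normalized values, no background correction, median scaling, an offset of 50, another filter, one fit, a replicate block, adjusted p alone, exchanged THP1 labels and leaving out each array.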

Additional observations from a re-analysis of the deposited data

Results flagged for a closer look

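The response to treatment (treated minus control) was tested for a difference between the lines, and 9 member results passed the call. For GO 6 of 10 member probes were called, where 24.5% of all tested probes were. For GONH2 3 of 10 were called, where 18.6% were. As labelled, the response to GO was more positive in THP1 than in Jurkat for MT1H ILMN_2124802 (2.65 log2 units), MT1E ILMN_2173611 (2.48), MT1X ILMN_1775170 (2.27), MT2A ILMN_1686664 (1.79), MT1F ILMN_1718766 (1.73) and MT1G ILMN_1715401 (1.40). The response to GONH2 was more positive in THP1 for MT2A (1.19) and more negative for MT1E (-1.18) and MT1H (-0.91). Without background correction MT1H and MT1G, which were at the background on Jurkat GO arrays, differed by 1.26 and 0.50 for GO, and MT1H by -0.56 for GONH2. With the THP1 labels exchanged, 4 of the 6 results for GO and 1 of the 3 for GONH2, MT2A, kept their call and direction. Over all 19455 tested probes 111 were then called for GO and 1072 for GONH2, in place of 4761 and 3615. No array was tested as an outlier, because each group held 3.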

How the results depend on the processing

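Of 1460 single results for member probes under an alternative, 1355 kept their direction and side of the threshold (30 of these were uncalled with the other sign), 43 fell below it, 60 passed it and 2 reversed. Both reversed results came with the THP1 labels exchanged, in the response to GONH2 between lines (MT1E 0.35, MT1H 0.42). On THP1 arrays labelled GONH2, 5 member probes in place of 3 were called with the deposited normalized values, without background correction, in one fit of 18 arrays and with adjusted p alone, where the count over all 19455 tested probes also rose, from 3866 to 4960, 4964, 5908 and 8180. Between the THP1 treatments it was 7 in place of 4 with adjusted p alone, and 10044 in place of 5440 over all probes. Between untreated lines, the count was 7 in place of 3 with the deposited normalized values, 6 without background correction, with an offset of 50 and with adjusted p alone, and 5 with probes detected on all arrays compared. Over all probes these counts were 3471, 3449, 3002, 5064 and 2285 in place of 2168. Leaving out each array in turn gave 4 to 5 called member probes for GO in Jurkat, 2 to 3 for THP1 labelled GO, 3 for THP1 labelled GONH2, 4 to 5 and 3 to 5 between treatments in Jurkat and THP1, and 6 to 7 and 2 to 4 between lines for GO and GONH2, 2 to 3 between untreated lines and 0 for GONH2 in Jurkat. Over all probes the counts in the same order were 3441 to 4089, 814 to 1073, 2524 to 3065, 3290 to 3931 and 3775 to 4515. The rest were 4042 to 4551 and 2817 to 3393 between lines, 1430 to 1887 between untreated lines and 2 to 4 for GONH2 in Jurkat. That last count was 158 with all 6 arrays.

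Median scaling moved the median difference of all tested probes from 0.06 to -0.13 for GO in Jurkat, from -0.00 to -0.23 and from 0.05 to -0.19 for THP1 labelled GO and GONH2, from -0.06 to 0.11 between treatments in Jurkat, from 0.04 to -0.17 between lines for GONH2 and from 0.00 to -0.12 between untreated lines. Without background correction dim probes moved less: the fall of MT1H with GO in Jurkat was 1.11 in place of 2.44, and MT1G on THP1 arrays labelled GO rose by 0.35 in place of 0.93. Deviations of arrays with the same replicate number correlated only weakly, at -0.07 to 0.16, and those with different numbers at -0.15 to 0.14. The same-number values were mostly positive, and whether the number marks a batch was not tested. With the replicate number as a block, the called member probes numbered 4 for GO in Jurkat, 2 and 3 for THP1 labelled GO and GONH2, 5 and 4 between treatments in Jurkat and THP1, 6 and 3 between lines, 3 between untreated lines and 0 for GONH2 in Jurkat. Over all probes the block gave 4010, 1032 and 3401, 3807 and 4751, 4694 and 3540, 1606 and 2, in the same order. The block ended the calls of MTF1 in Jurkat, for GO against control (adjusted p = 0.00645) and for GONH2 against GO (adjusted p = 0.00757), and of MT1G on THP1 arrays labelled GO (adjusted p = 0.0285), each at p above 0.001, and MT1G was newly called for GONH2 against GO in Jurkat (0.72, adjusted p = 0.00392).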

Other observations

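Of 10 genes known to respond to glucocorticoids, which also induce metallothioneins, 9 were tested. On THP1 arrays labelled GONH2 against those labelled GO, 3 fell and none rose: ZBTB16 by 0.72 (SE 0.12, adjusted p = 0.0015), TSC22D3 by 0.67 (SE 0.12, adjusted p = 0.0018) and KLF9 by 0.66 (SE 0.13, adjusted p = 0.0025). Of all tested probes 28.0% were called in this comparison and 13.2% were lower, and 0 or 1 gene of the list was called once any 1 of the 6 arrays was left out. Against controls, the THP1 arrays labelled GO showed a rise of ZFP36 by 0.85 (SE 0.11), where 7.93% of all tested probes were called. No gene of the list passed on the arrays labelled GONH2, where 19.9% were called. Without background correction 4 and 2 genes of the list were called. Over all tested probes 2954 and 4964 were then called, in place of 1543 and 3866. In Jurkat, SGK1 rose with GONH2 by 1.17 (SE 0.14, adjusted p = 0.029) and DUSP1 fell by 0.67 (SE 0.10) with GONH2 and by 0.88 (SE 0.10) with GO. Of all tested probes 0.812% were called with GONH2 and 25.1% with GO. Both calls with GONH2 were lost without any 1 of the 6 arrays. On untreated arrays DUSP1 was higher in Jurkat than in THP1 by 2.76 (SE 0.10, adjusted p = 4.21e-06), where 11.1% of all tested probes were called.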
